A study of Mus musculus with 24 samples.

Results

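The 38 genes described here carry glucose from uptake to lactate or to the gate of the mitochondrion, together with the genes of glycogen turnover. They were picked by symbol, as genes of these routes, from the 24537 genes of the deposited table. All 38 were in the table, and all 38 were among the 13044 genes that passed the filter on low counts and were tested. They fall into 6 roles: 4 transporters, 9 preparatory enzymes, 9 pay-off enzymes and lactate dehydrogenases, 3 bifunctional PFKFB enzymes, 7 glycogen genes and 6 genes of pyruvate entry.

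Mouse CD8+ T cells, activated in culture, were exposed to a single bile acid, and their RNA was sequenced in bulk by an ultra-low input protocol. The 7 acid groups were LCA (lithocholic acid), IsoLCA, IsoAlloLCA, DehydroLCA and UDCA (ursodeoxycholic acid) at 50 µM, and the taurine conjugates TCA (taurocholic acid) and TCDCA (taurochenodeoxycholic acid) at 100 µM. They were set against Control cells with no bile acid listed. Each group had 3 libraries, 24 in all. The exposure is given as 24 h in one place and as overnight in another. The labels give no mouse strain, age or vehicle, and they leave unsaid whether the 3 libraries per group stem from different mice or dishes. P-values therefore measure the spread between these libraries, which may be technical. All groups, Control included, are of in vitro activated T cells, so no resting cells were compared.

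Glycolysis turns glucose into pyruvate: the preparatory steps spend ATP to make a phosphorylated hexose and split it, and the pay-off steps recover ATP and NADH. Activated T cells run this route fast even with oxygen present, and lactate dehydrogenase and the monocarboxylate carriers then regenerate NAD+ and export the lactate. Many of these genes are textbook targets of the hypoxia-inducible factors and of Myc, while the pyruvate dehydrogenase kinases hold pyruvate back from the mitochondrion and glycogen phosphorylase releases stored glucose.

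Counts in genes ranged from 25998051 to 41024340.5 per library, with a median of 32852325. CD8 T cell markers were abundant in every library: the 7 of them, Cd3d, Cd3e, Cd3g, Cd8a, Cd8b1, Cd2 and Cd28, each lay between 175.1 and 774.3 CPM (counts scaled to a fixed library total), and Cd4 never passed 1.16 CPM. Markers of other cells were low but not all at 0. Pax5 of B cells reached at most 0.0327 CPM, while Cd79b lay between 3.33 and 5.84 CPM. Lyz2 and Csf1r of myeloid cells reached 0.335 and 0.149 CPM, and Ncr1 of NK cells 0.521 CPM. The summed level of the 5 B cell markers was 4.19 to 4.48 CPM with LCA and 4.08 to 5.08 CPM with IsoAlloLCA, against 5.88 to 6.38 CPM in Control. That of the NK markers Ncr1 and Klrb1c was 1.18 to 1.64 CPM with IsoAlloLCA, against 0.552 to 0.898 CPM in Control. The summed level of the 6 myeloid markers was 5.38 to 7.52 CPM in IsoAlloLCA libraries, against 2.62 to 3.35 CPM in Control, and Cd68 alone ranged from 2.12 to 6.83 CPM over all libraries. The share of reads in exons was 78.31% ± 2.78 (SD, n = 3) in IsoAlloLCA libraries and 82.6% ± 1.37 in Control. The part of these markers and of the exon share in the LCA and IsoAlloLCA results was not tested. Within their groups, TCA replicate 3 was the lowest library for 30 of the 38 genes and Control replicate 1 for 30 of 38, so both sit low for the set as a whole. Control replicate 2 was the highest of its group for 23 of the 38 and the lowest for 0. IsoAlloLCA replicate 2 and UDCA replicate 2 were the lowest for 25 each, and LCA replicate 2 and DehydroLCA replicate 1 for 23 each. The same ranks were not taken over all tested genes.

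With each of the 7 acids more of the 38 genes fell than rose. IsoAlloLCA also raised 7 of them, namely Slc2a3, Eno2, Ldhb, Pfkfb2, Pygl, Pdk2 and Mpc1, while each of the other acids raised at most 1. LCA lowered 28 of the 38 and raised 1, where 18.8% of all tested genes fell and 17.7% rose. UDCA lowered 25 and raised 1, against a background of 10.7% falling and 9.18% rising. TCDCA lowered 25 and raised 0, with 8.04% of all genes falling and 5.08% rising. These are calls of edgeR's quasi-likelihood test at a Benjamini-Hochberg adjusted p under 0.05, over all tested genes.

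IsoLCA lowered 19 and raised 1, where 6.12% of all genes fell and 3.73% rose. DehydroLCA lowered 14 and raised 1, beside 3.41% of all genes falling and 2.41% rising, and that total of 15 shrank to 4 without Control replicate 2 and to 4 without DehydroLCA replicate 1. TCA lowered 5 and raised 0, where 0.353% of all genes fell and 0.0843% rose. The TCA count was 0 when either Control replicate 2 or TCA replicate 3 was left out, 1 without Control replicate 3 or TCA replicate 1, 9 without TCA replicate 2, and 14 without Control replicate 1. In a fit of the TCA and Control libraries alone each of the 5 calls was lost, with edgeR adjusted p from 0.0618 to 0.253. IsoAlloLCA lowered 24 and raised 7, where 27.8% of all genes fell and 30.6% rose, so its rises among the 38 were below the background share. In every case bulk RNA cannot tell fewer cells of a type from less RNA per cell.

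The median log2 fold change over the 38 genes was -0.39 with LCA, -0.38 with TCDCA, -0.33 with UDCA, -0.18 with IsoLCA, -0.17 with IsoAlloLCA, -0.16 with TCA and -0.15 with DehydroLCA. The median over all tested genes lay between 0.002 and 0.026 in those comparisons. The 7 comparisons share the Control libraries, so a low or high Control value moves all of them together. A test of any difference among the 8 groups called 38 of the 38 genes, beside 76.2% of all tested genes.

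**Figure D1:**
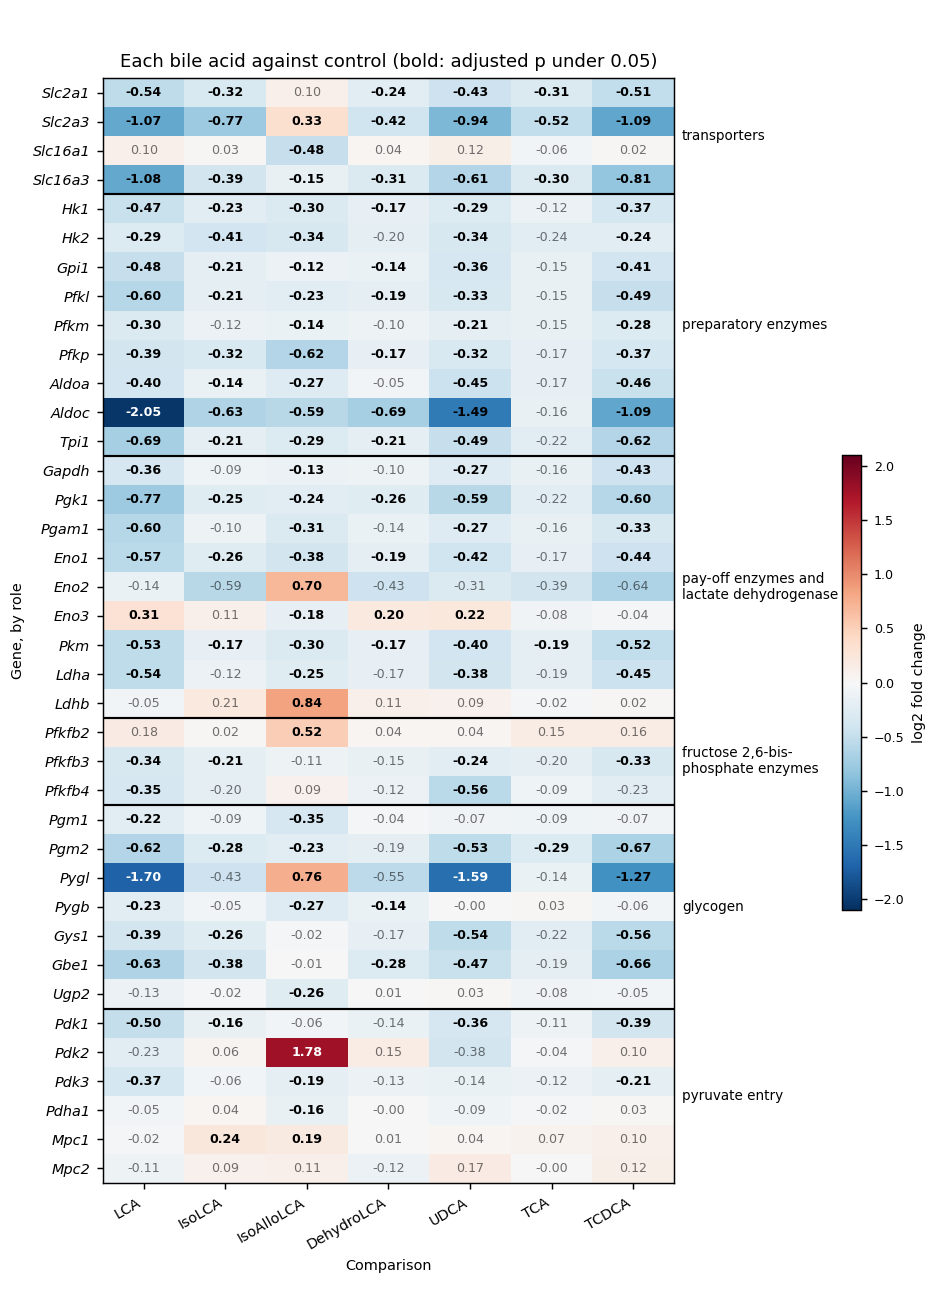
Log2 fold change of each of the 38 genes (rows, grouped by role) with each acid against Control (columns); bold values passed the test at an adjusted p under 0.05. Blue dominates the LCA, UDCA and TCDCA columns, from -2.05 for Aldoc with LCA, and the IsoAlloLCA column holds the darkest red, 1.78 for Pdk2.

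Summed, the 38 genes took 1.54% ± 0.0419 of the counts in genes with LCA (SD, n = 3 in each group), 1.58% ± 0.0151 with TCDCA and 1.65% ± 0.0587 with UDCA. They took 1.90% ± 0.0416 with IsoLCA, 1.90% ± 0.0512 with IsoAlloLCA, 1.91% ± 0.0962 with TCA and 1.94% ± 0.0265 with DehydroLCA, against 2.15% ± 0.0825 in Control. The LCA, TCDCA and UDCA libraries reached at most 1.70%, the other 4 acids ran from 1.80% to 1.98%, and the lowest Control library was at 2.06%. Read off these values, the groups fell into 3 tiers that did not overlap. TCDCA and TCA were given at a higher dose than the other acids, so the tiers do not compare acids at equal dose. The sum mostly reflects abundant members, such as Ldha at a mean of 3246.0, Pkm at 3222.0, Eno1 at 2880.4 and Gapdh at 2580.6 CPM in Control. Scarce members, such as Pdk2 at 1.4 CPM in Control, hardly count in it.

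**Figure D2:**
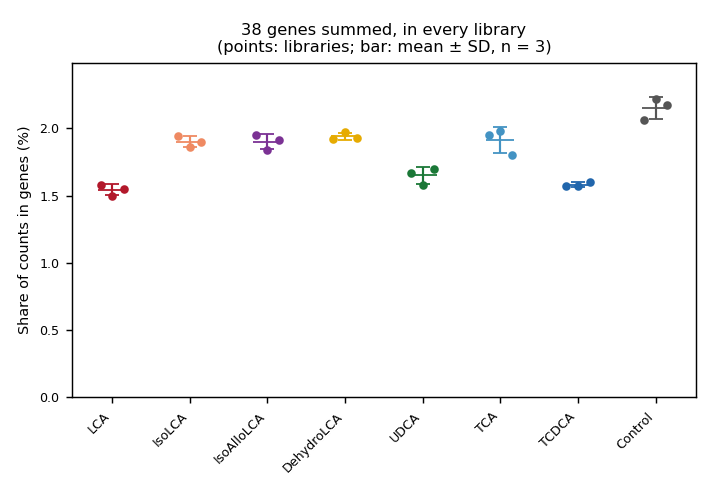
Share of all counts in genes taken by the 38 genes together (y axis, %) in each library (points) with the mean and SD of its group (bars, n = 3). LCA, UDCA and TCDCA libraries sit between 1.5% and 1.70%, the other acids between 1.80% and 1.98%, and Control between 2.06% and 2.22%.

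Members differed widely in level. In Control, per kilobase of transcript, Ldha stood at 2012.4 ± 130.6 CPM per kb (SD, n = 3), Gapdh at 1826.3 ± 110.3 and Eno1 at 1634.7 ± 57.4. Eno2 at 0.395 ± 0.0701 and Pdk2 at 0.62 ± 0.059 CPM per kb were the scarcest. Gapdh and several other abundant members have processed pseudogenes in the mouse genome, and the sources used here do not state how reads shared with those were counted, so their absolute levels are uncertain.

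Because many of the 38 moved together, the promoters were read for the core of the hypoxia response element, ACGTG, on either strand, and for the E-box CACGTG that Myc and related factors bind, which holds ACGTG on both strands. The windows run from 250 bases before to 50 bases after the RefSeq start (GRCm38.p6), and 37 of the 38 genes had one. ACGTG was present in 21 of 37 windows (56.8%), against 2689 of 10210 windows of tested genes (26.3%). CACGTG was present in 5 of 37 (13.5%), against 1049 of 10210 (10.3%). ACGTG outside any CACGTG was in 18 of 37 (48.6%), against 1839 of 10210 (18%). A match describes these letters only and is not a binding site.

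Members with and without the motif fell. Of all tested genes, 18.8% fell with LCA, 8.04% with TCDCA, 27.8% with IsoAlloLCA and 6.12% with IsoLCA. LCA raised 17.7% of all tested genes, IsoLCA 3.73% and IsoAlloLCA 30.6%. The IsoAlloLCA rises given below were under that share with and without the motif. With LCA, 17 of 21 genes with ACGTG fell (median log2 fold change -0.37), and 10 of 16 without it fell and 1 rose (median -0.39). With TCDCA, 15 of 21 with the motif fell (median -0.33), and 9 of 16 without it fell (median -0.40). With IsoAlloLCA, 16 of 21 with it fell and 3 rose (median -0.24), and 8 of 16 without it fell and 3 rose (median -0.09). With IsoLCA, 9 of 21 with it fell (median -0.12), and 9 of 16 without it fell and 1 rose (median -0.20). With UDCA, 14 of 21 with it fell (median -0.29), and 10 of 16 without it fell and 1 rose (median -0.35). With DehydroLCA, 6 of 21 with it fell (median -0.14), and 7 of 16 without it fell and 1 rose (median -0.15). With TCA, 3 of 21 with it and 1 of 16 without it fell. Of all tested genes, UDCA lowered 10.7% and raised 9.18%, DehydroLCA lowered 3.41% and raised 2.41%, and TCA lowered 0.353%.

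The 6 windows printed here belong to members on which the results turn: the lactate exporter Slc16a3, Aldoc and Pgk1, which fell, Eno3, which rose with LCA, and Pygl and Pdk2, which rose with IsoAlloLCA. Each is written 5′ to 3′ on the gene's strand, with matches to ACGTG, or to CACGT where it reads on the other strand, in capitals. Their positions are Slc16a3 chr11:120948817-120949116 on the plus strand, Aldoc chr11:78322823-78323122 on the plus strand, Pgk1 chrX:106186850-106187149 on the plus strand, Eno3 chr11:70656926-70657225 on the plus strand, Pygl chr12:70227634-70227933 on the minus strand and Pdk2 chr11:95041322-95041621 on the minus strand.
Slc16a3: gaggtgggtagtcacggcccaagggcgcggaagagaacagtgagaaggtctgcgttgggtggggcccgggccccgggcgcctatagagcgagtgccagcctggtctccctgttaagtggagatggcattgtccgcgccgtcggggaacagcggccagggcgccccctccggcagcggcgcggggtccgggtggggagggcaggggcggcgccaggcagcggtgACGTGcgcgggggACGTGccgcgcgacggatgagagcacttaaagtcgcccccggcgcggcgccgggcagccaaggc
Aldoc: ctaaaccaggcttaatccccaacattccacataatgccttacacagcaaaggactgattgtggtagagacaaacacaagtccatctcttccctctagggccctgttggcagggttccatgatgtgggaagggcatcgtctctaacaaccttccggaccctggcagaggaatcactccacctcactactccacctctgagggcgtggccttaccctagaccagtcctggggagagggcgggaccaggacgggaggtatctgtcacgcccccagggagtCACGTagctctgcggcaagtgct
Pgk1: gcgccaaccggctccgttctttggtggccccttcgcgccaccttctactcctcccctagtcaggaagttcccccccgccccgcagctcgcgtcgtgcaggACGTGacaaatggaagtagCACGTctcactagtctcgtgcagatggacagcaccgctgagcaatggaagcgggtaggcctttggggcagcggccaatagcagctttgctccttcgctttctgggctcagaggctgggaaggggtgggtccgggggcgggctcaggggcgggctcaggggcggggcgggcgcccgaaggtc
Eno3: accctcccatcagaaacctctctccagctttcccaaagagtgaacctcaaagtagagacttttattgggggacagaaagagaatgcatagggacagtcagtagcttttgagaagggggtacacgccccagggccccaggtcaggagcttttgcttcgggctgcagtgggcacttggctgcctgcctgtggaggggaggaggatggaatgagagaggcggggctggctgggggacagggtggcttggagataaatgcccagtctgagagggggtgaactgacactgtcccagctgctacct
Pygl: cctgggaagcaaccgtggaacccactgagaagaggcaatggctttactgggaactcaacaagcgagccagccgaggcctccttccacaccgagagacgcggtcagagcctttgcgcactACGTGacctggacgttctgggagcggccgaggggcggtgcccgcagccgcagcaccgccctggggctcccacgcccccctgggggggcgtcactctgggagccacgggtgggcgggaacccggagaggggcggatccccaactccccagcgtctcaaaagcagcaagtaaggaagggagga
Pdk2: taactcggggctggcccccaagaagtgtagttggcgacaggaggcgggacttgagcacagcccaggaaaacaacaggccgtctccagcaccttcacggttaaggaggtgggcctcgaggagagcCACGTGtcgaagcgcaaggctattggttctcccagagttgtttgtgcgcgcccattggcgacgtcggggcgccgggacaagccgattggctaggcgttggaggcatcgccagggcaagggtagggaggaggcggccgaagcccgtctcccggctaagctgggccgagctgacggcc
Slc16a3 holds the core at a pair of places close to the start, Pgk1 at a pair of places further upstream that face opposite ways, and Pdk2 holds a single CACGTG. Eno3 has no match in its window. Of the 16 members without a match, 10 fell with LCA and 1, Eno3, rose, where 18.8% of all tested genes fell and 17.7% rose.

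Among the transporters, both glucose transporters and the lactate exporter Slc16a3 fell with LCA, IsoLCA, DehydroLCA, UDCA, TCA and TCDCA, which makes 3 of the 4 genes with each of these acids. IsoAlloLCA raised Slc2a3 and lowered both lactate carriers. For comparison, the shares of all tested genes lowered were 18.8% with LCA, 6.12% with IsoLCA, 3.41% with DehydroLCA and 10.7% with UDCA. They were 0.353% with TCA, 8.04% with TCDCA and 27.8% with IsoAlloLCA, and IsoAlloLCA raised 30.6%. Slc2a3 stood at 165.7, 161.9 and 159.8 CPM with LCA, 209.0, 195.1 and 197.6 with IsoLCA, 414.1, 460.8 and 413.6 with IsoAlloLCA, 240.9, 270.4 and 253.3 with DehydroLCA and 183.1, 166.5 and 184.4 with UDCA. The taurine conjugates gave 236.2, 283.7 and 192.9 CPM with TCA and 157.7, 157.2 and 167.5 with TCDCA, against 312.0, 389.6 and 323.9 CPM in Control. Slc2a3 encodes GLUT3, a high-affinity glucose transporter. Every library of LCA, IsoLCA, DehydroLCA, UDCA, TCA and TCDCA lay below the lowest Control library, and every IsoAlloLCA library lay above the highest. The log2 fold change against Control was -1.07 ± 0.09 (SE) with LCA, -1.09 ± 0.09 with TCDCA and -0.94 ± 0.09 with UDCA, which is 2.1-fold lower with LCA (edgeR adjusted p = 1.07e-09). It was -0.77 ± 0.09 with IsoLCA (edgeR adjusted p = 7.97e-07), -0.52 ± 0.09 with TCA (edgeR adjusted p = 0.00527) and -0.42 ± 0.09 with DehydroLCA. The DehydroLCA call was lost without Control replicate 2, where the edgeR adjusted p was 0.0502, and the TCA call without Control replicate 2 (0.0902) or TCA replicate 3 (0.052). With IsoAlloLCA, Slc2a3 rose by 0.33 ± 0.09 (edgeR adjusted p = 0.0023).

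Slc16a3 was at 148.2, 132.3 and 142.0 CPM with LCA, 232.7, 222.9 and 224.6 with IsoLCA, 281.5, 257.3 and 266.0 with IsoAlloLCA, 231.0, 252.6 and 236.5 with DehydroLCA and 196.3, 176.6 and 211.9 with UDCA. It was at 248.0, 256.4 and 222.0 CPM with TCA and 157.5, 172.2 and 180.3 with TCDCA, against 281.9, 311.5 and 300.3 CPM in Control. Slc16a3 encodes MCT4, the low-affinity carrier that exports lactate from fast glycolytic cells. LCA libraries were the lowest, TCDCA and UDCA came next, and only IsoAlloLCA libraries came close to Control, from which they did not overlap by a narrow gap. Slc16a3 fell by 1.08 ± 0.06 with LCA on the log2 scale (edgeR adjusted p = 2.07e-12). The other log2 fold changes were -0.81 ± 0.06 with TCDCA, -0.61 ± 0.06 with UDCA, -0.39 ± 0.06 with IsoLCA, -0.31 ± 0.06 with DehydroLCA, -0.30 ± 0.06 with TCA and -0.15 ± 0.06 with IsoAlloLCA. The IsoAlloLCA call was lost when Control replicate 2 or 3, or IsoAlloLCA replicate 2 or 3, was left out, with edgeR adjusted p between 0.0608 and 0.144, and the TCA call when Control replicate 2 or 3, or TCA replicate 1 or 3, was left out (0.0786 to 0.226).

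Slc2a1, which encodes GLUT1, the main glucose transporter of activated T cells, averaged 148.5 ± 4.59 CPM with LCA, 151.6 ± 12 with TCDCA and 160.7 ± 10.8 with UDCA, against 215.7 ± 17 CPM in Control (SD, n = 3 each). Its log2 fold change ran from -0.54 ± 0.06 with LCA to -0.24 ± 0.06 with DehydroLCA over the 6 acids that lowered it. The DehydroLCA call was lost without Control replicate 2 or 3 or DehydroLCA replicate 1 (edgeR adjusted p from 0.0528 to 0.11), and the TCA call without Control replicate 2 or 3 or TCA replicate 1 or 3 (0.0781 to 0.168). With IsoAlloLCA its 3 libraries were at 234.8, 228.7 and 232.1 CPM and the difference of 0.10 did not pass the test (95% interval -0.02 to 0.22). Slc16a1 encodes MCT1, the carrier of higher affinity that takes lactate in either direction. It went to 150.6, 123.8 and 135.8 CPM with IsoAlloLCA, against 180.7, 192.0 and 200.8 CPM in Control, a log2 fold change of -0.48 ± 0.06 (edgeR adjusted p = 1.79e-07). With the other 6 acids its differences ran from -0.06 to 0.12 and none passed.

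Of the preparatory enzymes, LCA, IsoAlloLCA, UDCA and TCDCA each lowered all 9, IsoLCA lowered 8, DehydroLCA 6 and TCA 0, and no acid raised any. Over all tested genes the shares lowered were 18.8% with LCA, 27.8% with IsoAlloLCA and 10.7% with UDCA. They were 8.04% with TCDCA, 6.12% with IsoLCA and 3.41% with DehydroLCA. Some of these calls depended on 1 library: without Control replicate 2, those of Pfkm with IsoAlloLCA (log2 fold change -0.09, edgeR adjusted p = 0.247) and UDCA (0.125), of Gpi1 with IsoAlloLCA (0.0607) and of Hk2 with TCDCA (0.1) were lost. Pfkm with IsoAlloLCA was also lost without IsoAlloLCA replicate 2 or 3, Pfkm with UDCA without UDCA replicate 2, and Hk2 with TCDCA without TCDCA replicate 1 or 2. Pfkm and Gpi1 with IsoAlloLCA were lost in a fit of those 6 libraries alone as well (edgeR adjusted p = 0.0716 and 0.061). Without Control replicate 2, the DehydroLCA calls of Hk1 (edgeR adjusted p = 0.0742), Gpi1 (0.179), Pfkl (0.0568), Pfkp (0.177) and Tpi1 (0.126) were lost too. The same DehydroLCA calls were lost without DehydroLCA replicate 1 (0.0519 to 0.141). Tpi1 with IsoLCA was lost without Control replicate 2 or 3 or IsoLCA replicate 2 (0.0702 to 0.0918). Aldoc stood at 11.7, 9.84 and 11 CPM with LCA, 30, 30.4 and 27.2 with IsoLCA, 30.4, 30.9 and 28.8 with IsoAlloLCA, 26.2, 29.4 and 28.4 with DehydroLCA and 16.8, 13.6 and 18.2 with UDCA. With the conjugates it stood at 44.6, 45.3 and 31.0 CPM with TCA and 21.6, 18.9 and 23.4 with TCDCA, against 42.5, 51.8 and 41.3 CPM in Control. Aldoc encodes aldolase C, a minor aldolase here whose main site is the brain. LCA libraries were the lowest and UDCA and TCDCA followed, and all libraries of the unconjugated acids and TCDCA lay below every Control library. TCA replicates 1 and 2 lay inside the Control range and replicate 3 lay below it. Aldoc was 4.15-fold lower with LCA (log2 -2.05 ± 0.12, edgeR adjusted p = 3.14e-12), the largest fall among the 38 genes in the 7 comparisons with Control. The log2 fold change was -1.49 ± 0.12 with UDCA and -1.09 ± 0.11 with TCDCA, and it was -0.69 ± 0.11 with DehydroLCA, -0.63 ± 0.11 with IsoLCA and -0.59 ± 0.11 with IsoAlloLCA. With TCA the difference of -0.16 did not pass (95% interval -0.39 to 0.06).

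Pfkl held 219.2, 208.0 and 216.5 CPM with LCA, 285.2, 279.4 and 277.1 with IsoLCA, 284.9, 261.5 and 287.9 with IsoAlloLCA, 279.7, 291.0 and 286.1 with DehydroLCA and 267.9, 234.2 and 272.8 with UDCA. It held 289.9, 304.5 and 284.1 CPM with TCA and 232.2, 230.9 and 233.4 with TCDCA, against 315.1, 330.4 and 331.3 CPM in Control. Pfkl encodes the liver-type phosphofructokinase, whose reaction commits the hexose to glycolysis. Every library of all 7 acids lay below the lowest Control library. The log2 fold change was -0.60 ± 0.05 with LCA (edgeR adjusted p = 2.21e-10) and -0.49 ± 0.05 with TCDCA, and lay between -0.33 and -0.19 with UDCA, IsoAlloLCA, IsoLCA and DehydroLCA, where the last was lost without Control replicate 2 (edgeR adjusted p = 0.0568) or DehydroLCA replicate 1 (0.0668). With TCA it was -0.15 and did not pass.

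Pfkp, the platelet-type phosphofructokinase and the most abundant of the family here, differed in order: it fell most with IsoAlloLCA (log2 -0.62 ± 0.05, edgeR adjusted p = 2.87e-11), against -0.39 ± 0.05 with LCA. The log2 fold change of Hk2, the inducible hexokinase, was -0.41 ± 0.07 with IsoLCA (edgeR adjusted p = 7.58e-05), -0.34 ± 0.07 with IsoAlloLCA, -0.34 ± 0.07 with UDCA and -0.29 ± 0.06 with LCA. Hk1, the constitutive hexokinase, fell by 0.47 ± 0.04 with LCA. Tpi1, which interconverts the triose phosphates, was at -0.69 ± 0.06 with LCA and -0.62 ± 0.06 with TCDCA. Gpi1, the isomerase of hexose phosphates, Aldoa, the main aldolase, and the muscle-type Pfkm were at -0.48, -0.40 and -0.30 with LCA, all called lower. Aldoa was at -0.45 ± 0.04 with UDCA (edgeR adjusted p = 1e-07), and its call with IsoLCA (-0.14) was lost in a fit of those 6 libraries alone (edgeR adjusted p = 0.0763). The IsoLCA call of Aldoa was also lost without Control replicate 2 or 3 or IsoLCA replicate 1, 2 or 3 (edgeR adjusted p from 0.0775 to 0.22).

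Of the 9 pay-off enzymes and lactate dehydrogenases, LCA lowered 6 and raised 1, UDCA lowered 6 and raised 1, TCDCA lowered 6, IsoLCA 3, DehydroLCA lowered 3 and raised 1, and TCA lowered 1. IsoAlloLCA lowered 7 and raised 2, of which the fall of Gapdh was lost without Control replicate 3 or IsoAlloLCA replicate 2 (edgeR adjusted p = 0.0639 and 0.0643). Shares of all tested genes lowered were 18.8% with LCA, 10.7% with UDCA, 8.04% with TCDCA and 6.12% with IsoLCA. They were 3.41% with DehydroLCA, 0.353% with TCA and 27.8% with IsoAlloLCA. Shares raised were 17.7% with LCA, 9.18% with UDCA, 2.41% with DehydroLCA and 30.6% with IsoAlloLCA, whose rises here were below that share. Pgk1 stood at 952.7, 861.0 and 936.1 CPM with LCA, 1387.0, 1229.4 and 1320.7 with IsoLCA, 1392.3, 1241.7 and 1315.1 with IsoAlloLCA, 1280.9, 1346.0 and 1273.9 with DehydroLCA and 1042.0, 991.8 and 1077.0 with UDCA. The remaining groups stood at 1383.8, 1388.7 and 1234.9 CPM with TCA and 1010.9, 1027.7 and 1043.0 with TCDCA, against 1466.2, 1624.5 and 1582.6 CPM in Control. Pgk1 encodes phosphoglycerate kinase, the earlier of the ATP-producing steps. All libraries of the 7 acids were below the lowest Control library, and LCA, TCDCA and UDCA libraries were all below those of the other acids. Against Control its log2 fold change was -0.77 ± 0.05 with LCA (edgeR adjusted p = 6.14e-11), -0.60 ± 0.05 with TCDCA and -0.59 ± 0.05 with UDCA. Pgk1 was at -0.26 ± 0.05 with DehydroLCA, -0.25 ± 0.05 with IsoLCA and -0.24 ± 0.05 with IsoAlloLCA, and -0.22 with TCA, which did not pass (edgeR adjusted p = 0.0647).

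Pkm measured 2290.8, 2149.9 and 2247.6 CPM with LCA, 2929.2, 2786.2 and 2884.4 with IsoLCA, 2717.4, 2475.2 and 2635.4 with IsoAlloLCA, 2816.9, 2928.6 and 2869.5 with DehydroLCA and 2460.8, 2373.9 and 2497.3 with UDCA. It measured 2907.4, 2899.6 and 2643.3 CPM with TCA and 2222.9, 2259.0 and 2269.4 with TCDCA, against 3042.3, 3314.8 and 3308.8 CPM in Control. Pkm encodes pyruvate kinase, the last step to pyruvate; counts per gene do not separate its muscle and proliferative splice forms. Every acid library was below the lowest Control library, and Pkm was called lower with all 7 acids. On the log2 scale it was at -0.53 ± 0.04 with LCA, -0.52 ± 0.04 with TCDCA (edgeR adjusted p = 9.15e-09), -0.40 ± 0.04 with UDCA, -0.30 ± 0.04 with IsoAlloLCA, -0.19 ± 0.04 with TCA, -0.17 ± 0.04 with IsoLCA and -0.17 ± 0.04 with DehydroLCA. The TCA call was lost without Control replicate 2 or 3 or TCA replicate 1 or 3 (edgeR adjusted p from 0.0769 to 0.312), the DehydroLCA call without Control replicate 2 or 3 or DehydroLCA replicate 1 or 3 (0.0633 to 0.109), and the IsoLCA call without Control replicate 2 (0.0699).

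Eno3, the enolase of muscle, went the other way. Eno3 had 32.8, 30.7 and 34.1 CPM with LCA, 28.5, 27.6 and 29.0 with IsoLCA, 22.9, 21.9 and 24.6 with IsoAlloLCA, 31.0, 29.6 and 29.9 with DehydroLCA and 30.9, 31.6 and 29.1 with UDCA. It had 25.2, 23.7 and 25.3 CPM with TCA and 25.8, 26.1 and 24.8 with TCDCA, against 25.2, 26.6 and 26.8 CPM in Control. LCA, IsoLCA, DehydroLCA and UDCA libraries were all above the highest Control library, IsoAlloLCA libraries were all below the lowest, and TCA and TCDCA libraries overlapped Control. Eno3 rose by 0.31 ± 0.05 with LCA (edgeR adjusted p = 2.43e-05), 0.22 ± 0.05 with UDCA and 0.20 ± 0.05 with DehydroLCA, and its log2 fold change was -0.18 ± 0.05 with IsoAlloLCA (edgeR adjusted p = 0.00399). With IsoLCA the difference of 0.11 did not pass. The DehydroLCA call was lost without Control replicate 1 (edgeR adjusted p = 0.098) and without DehydroLCA replicate 1 (0.0834). Eno1, the main enolase, was at -0.57 ± 0.05 with LCA, -0.42 ± 0.05 with UDCA and -0.38 ± 0.05 with IsoAlloLCA (edgeR adjusted p = 1.1e-07).

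Gapdh, the dehydrogenase that opens the pay-off steps, had a log2 fold change of -0.43 ± 0.04 with TCDCA and -0.36 ± 0.04 with LCA. Pgam1, the mutase, was at -0.60 ± 0.05 with LCA and -0.31 ± 0.05 with IsoAlloLCA. Ldha, which makes lactate and was the most abundant member per length in Control, was at -0.54 ± 0.06 with LCA, -0.45 ± 0.06 with TCDCA, -0.38 ± 0.06 with UDCA and -0.25 ± 0.06 with IsoAlloLCA, all called lower. Its differences with IsoLCA (-0.12), DehydroLCA (-0.17) and TCA (-0.19) did not pass.

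Ldhb, the subunit better suited to turning lactate back into pyruvate, was changed by IsoAlloLCA: it had 16.8, 15.2 and 15.9 CPM with IsoAlloLCA, against 8.24, 8.74 and 9.75 CPM in Control. It rose by 0.84 ± 0.09 (edgeR adjusted p = 6.48e-09), and its differences with the other 6 acids, -0.05 to 0.21, did not pass. Eno2, the enolase of neurons, was scarce: 1.27, 2.46 and 1.56 CPM with IsoAlloLCA, against 1.3, 1.08 and 0.911 CPM in Control. Those libraries overlapped, and its rise of 0.70 ± 0.25 (edgeR adjusted p = 0.0193) was not called by DESeq2 (adjusted p = 0.0515), nor without Control replicate 3 (edgeR adjusted p = 0.0945) or IsoAlloLCA replicate 2 (0.264).

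The bifunctional PFKFB enzymes make and break down the allosteric activator of phosphofructokinase. LCA and UDCA each lowered 2 of the 3, IsoLCA and TCDCA 1 each, and IsoAlloLCA raised 1. The shares of all tested genes lowered were 18.8% with LCA, 10.7% with UDCA, 6.12% with IsoLCA and 8.04% with TCDCA. IsoAlloLCA raised 30.6% of all tested genes, so its 1 of 3 here is near the background. Pfkfb3 stood at 64.1, 60.8 and 59.2 CPM with LCA, 67.8, 64.3 and 69.0 with IsoLCA, 72.2, 67.6 and 76.9 with IsoAlloLCA, 66.7, 71.6 and 71.5 with DehydroLCA and 63.6, 63.3 and 70.7 with UDCA. It stood at 66.6, 71.9 and 64.8 CPM with TCA and 60.6, 59.8 and 64.5 with TCDCA, against 71.3, 80.3 and 81.2 CPM in Control. Pfkfb3 encodes the form with the strongest kinase activity. LCA, UDCA, TCDCA and IsoLCA libraries were all below Control, while IsoAlloLCA, DehydroLCA and TCA libraries overlapped it. The log2 fold change was -0.34 ± 0.06 with LCA (edgeR adjusted p = 4.31e-05), -0.33 ± 0.06 with TCDCA, -0.24 ± 0.06 with UDCA and -0.21 ± 0.06 with IsoLCA. The IsoLCA call was lost without Control replicate 2 or 3 or IsoLCA replicate 2 (edgeR adjusted p from 0.0673 to 0.0866).

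Pfkfb4 was at 3.98, 3.25 and 3.94 CPM with LCA, 4.57, 4.26 and 3.69 with IsoLCA, 4.69, 5.24 and 5.36 with IsoAlloLCA, 4.14, 4.66 and 4.33 with DehydroLCA and 3.14, 3.03 and 3.57 with UDCA. It was at 4.24, 5.15 and 4.07 CPM with TCA and 3.59, 4.35 and 4.28 with TCDCA, against 4.74, 5.11 and 4.47 CPM in Control. Pfkfb4, a form first described in testis, was lowest on average with UDCA. LCA, UDCA and TCDCA libraries lay below the lowest Control library, and those of the other acids overlapped Control. It was called lower with UDCA (log2 -0.56 ± 0.12, edgeR adjusted p = 0.00158) and LCA (-0.35 ± 0.11), and the LCA call was lost without Control replicate 2 or LCA replicate 2 (edgeR adjusted p = 0.0772 and 0.0979). Pfkfb2, the heart form, rose with IsoAlloLCA by 0.52 ± 0.12 (edgeR adjusted p = 0.000565), though the libraries, 14.4, 20.5 and 20.4 CPM with IsoAlloLCA and 14.5, 12.9 and 11.3 CPM in Control, overlapped.

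Among the 7 glycogen genes, LCA lowered 6, UDCA 4, TCDCA 4, IsoLCA 3, DehydroLCA 2 and TCA 1, while IsoAlloLCA lowered 4 and raised Pygl. Over all tested genes LCA lowered 18.8%, UDCA 10.7%, TCDCA 8.04%, IsoLCA 6.12%, DehydroLCA 3.41% and TCA 0.353%. IsoAlloLCA lowered 27.8% of all tested genes and raised 30.6%, so its 1 rise of 7 is below that share. Pygl stood at 4.74, 4.6 and 4.3 CPM with LCA, 10.8, 12 and 10.3 with IsoLCA, 23.8, 28.3 and 22.7 with IsoAlloLCA, 9.52, 11 and 9.81 with DehydroLCA and 5.65, 4.63 and 4.44 with UDCA. It stood at 16.7, 16.1 and 7.5 CPM with TCA and 6.35, 5.82 and 6.25 with TCDCA, against 14.2, 18.2 and 12.2 CPM in Control. Pygl encodes the liver-type glycogen phosphorylase, which releases glucose units from glycogen. LCA, UDCA and TCDCA libraries were all below the lowest Control library, as those of IsoLCA and DehydroLCA were by less, and IsoAlloLCA libraries were all above the highest. TCA replicate 3 stood far below the other TCA libraries. Pygl was 3.25-fold lower with LCA (log2 -1.70 ± 0.20, edgeR adjusted p = 2.43e-07), 3.01-fold lower with UDCA (log2 -1.59 ± 0.20) and at log2 -1.27 ± 0.19 with TCDCA. It was 1.69-fold higher with IsoAlloLCA (log2 0.76 ± 0.17, edgeR adjusted p = 0.000359). The differences with DehydroLCA (-0.55), IsoLCA (-0.43) and TCA (-0.14) did not pass.

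Pgm2 held 113.8, 107.4 and 108.8 CPM with LCA, 146.2, 131.8 and 138.2 with IsoLCA, 149.9, 137.8 and 144.4 with IsoAlloLCA, 143.5, 154.5 and 146.7 with DehydroLCA and 122.5, 110.2 and 119.2 with UDCA. It held 142.6, 150.6 and 121.4 CPM with TCA and 106.2, 106.7 and 105.1 with TCDCA, against 159.6, 177.4 and 169.9 CPM in Control. Pgm2 is the deposited table's symbol for a phosphoglucomutase gene that RefSeq GRCm38.p6 calls Pgm1, an enzyme that links glycogen to the hexose phosphates; the table's Pgm1 is RefSeq's Pgm2. All acid libraries lay below the lowest Control library. In log2 terms the change was -0.67 ± 0.06 with TCDCA (edgeR adjusted p = 2.03e-08), -0.62 ± 0.06 with LCA, -0.53 ± 0.06 with UDCA, -0.29 ± 0.06 with TCA, -0.28 ± 0.06 with IsoLCA and -0.23 ± 0.06 with IsoAlloLCA. The TCA call was lost without Control replicate 2 or 3 or TCA replicate 1 or 3 (edgeR adjusted p from 0.057 to 0.2). With DehydroLCA it was -0.19 and did not pass (edgeR adjusted p = 0.0529).

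Glycogen synthase, Gys1, was at -0.56 ± 0.07 with TCDCA, -0.54 ± 0.07 with UDCA, -0.39 ± 0.07 with LCA and -0.26 ± 0.07 with IsoLCA on the log2 scale, the last being lost without Control replicate 2 (edgeR adjusted p = 0.131) or IsoLCA replicate 1 (0.0609). The branching enzyme, Gbe1, was at -0.66 ± 0.08 with TCDCA, -0.63 ± 0.08 with LCA, -0.47 ± 0.08 with UDCA, -0.38 ± 0.08 with IsoLCA and -0.28 ± 0.08 with DehydroLCA, the last being lost without Control replicate 2 or DehydroLCA replicate 1 or 2 (edgeR adjusted p from 0.089 to 0.164). With IsoAlloLCA neither passed: Gys1 was at -0.02 and Gbe1 at -0.01. Pygb, the brain-type phosphorylase, was called lower with IsoAlloLCA (-0.27 ± 0.04), LCA (-0.23 ± 0.04) and DehydroLCA (-0.14 ± 0.04), the last being lost without Control replicate 2 or DehydroLCA replicate 1 or 3 (edgeR adjusted p from 0.0555 to 0.106). The table's Pgm1 fell with IsoAlloLCA (-0.35 ± 0.05) and LCA (-0.22 ± 0.04), and Ugp2, which makes the UDP-glucose that glycogen is built from, fell with IsoAlloLCA alone of the 7 (-0.26 ± 0.06).

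Among the genes of pyruvate entry, LCA and TCDCA lowered 2 of the 6 each, UDCA 1, DehydroLCA and TCA 0, IsoLCA lowered 1 and raised 1, and IsoAlloLCA lowered 2 and raised 2. With IsoAlloLCA these shares are near those of all tested genes, 27.8% lowered and 30.6% raised. Of all tested genes, LCA lowered 18.8%, TCDCA 8.04% and UDCA 10.7%, and IsoLCA lowered 6.12% and raised 3.73%. Pdk2 stood at 1.13, 0.869 and 1.55 CPM with LCA, 1.43, 1.55 and 1.38 with IsoLCA, 4.11, 5.5 and 4.76 with IsoAlloLCA, 1.44, 1.69 and 1.5 with DehydroLCA and 1.08, 1.24 and 0.875 with UDCA. It stood at 1.44, 1.32 and 1.3 CPM with TCA and 1.37, 1.53 and 1.59 with TCDCA, against 1.46, 1.49 and 1.24 CPM in Control. Pdk2 encodes a pyruvate dehydrogenase kinase of wide tissue range. It was scarce in every group, and the IsoAlloLCA libraries stood far above all others. Libraries of LCA, IsoLCA, DehydroLCA, TCA and TCDCA overlapped Control, and the highest UDCA library met the lowest Control library. Pdk2 was 3.44-fold higher with IsoAlloLCA (log2 1.78 ± 0.15, edgeR adjusted p = 2.91e-10), the largest rise among the 38 genes in the 7 comparisons with Control. With UDCA its difference was -0.38 and did not pass (95% interval -0.77 to 0.02).

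Pdk1 was at 143.5, 132.3 and 135.6 CPM with LCA, 182.8, 169.3 and 168.3 with IsoLCA, 193.8, 178.5 and 184.4 with IsoAlloLCA, 178.3, 182.7 and 166.3 with DehydroLCA and 150.6, 150.2 and 153.1 with UDCA. It was at 187.0, 188.4 and 163.9 CPM with TCA and 144.3, 148.3 and 152.4 with TCDCA, against 181.4, 203.5 and 196.8 CPM in Control. Pdk1 is the kinase of the family best known as a target of the hypoxia-inducible factors. LCA, UDCA and TCDCA libraries were all below the lowest Control library, and those of the other 4 acids overlapped Control. The log2 fold change was -0.50 ± 0.05 with LCA (edgeR adjusted p = 4.05e-08), -0.39 ± 0.05 with TCDCA and -0.36 ± 0.05 with UDCA. The call with IsoLCA (-0.16 ± 0.05, edgeR adjusted p = 0.0446) was lost without Control replicate 2 or 3 or IsoLCA replicate 2 or 3, with edgeR adjusted p from 0.0983 to 0.242.

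Pdk3, a further kinase of the complex, was at -0.37 ± 0.05 with LCA, -0.21 ± 0.05 with TCDCA and -0.19 ± 0.05 with IsoAlloLCA, all called lower, though the TCDCA call was lost without Control replicate 2 (edgeR adjusted p = 0.057). Pdha1, the catalytic subunit that these kinases act on, was called lower with IsoAlloLCA (-0.16 ± 0.04), and its differences with the other acids, -0.09 to 0.04, did not pass. Mpc1, a subunit of the mitochondrial pyruvate carrier, rose with IsoLCA to 38.3, 39.8 and 38 CPM, against 32.0, 32.9 and 33.1 CPM in Control (log2 0.24 ± 0.04, edgeR adjusted p = 0.000486), and with IsoAlloLCA by 0.19 ± 0.05. Its partner Mpc2 passed with no acid, with differences from -0.12 to 0.17.

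**Figure D3:**
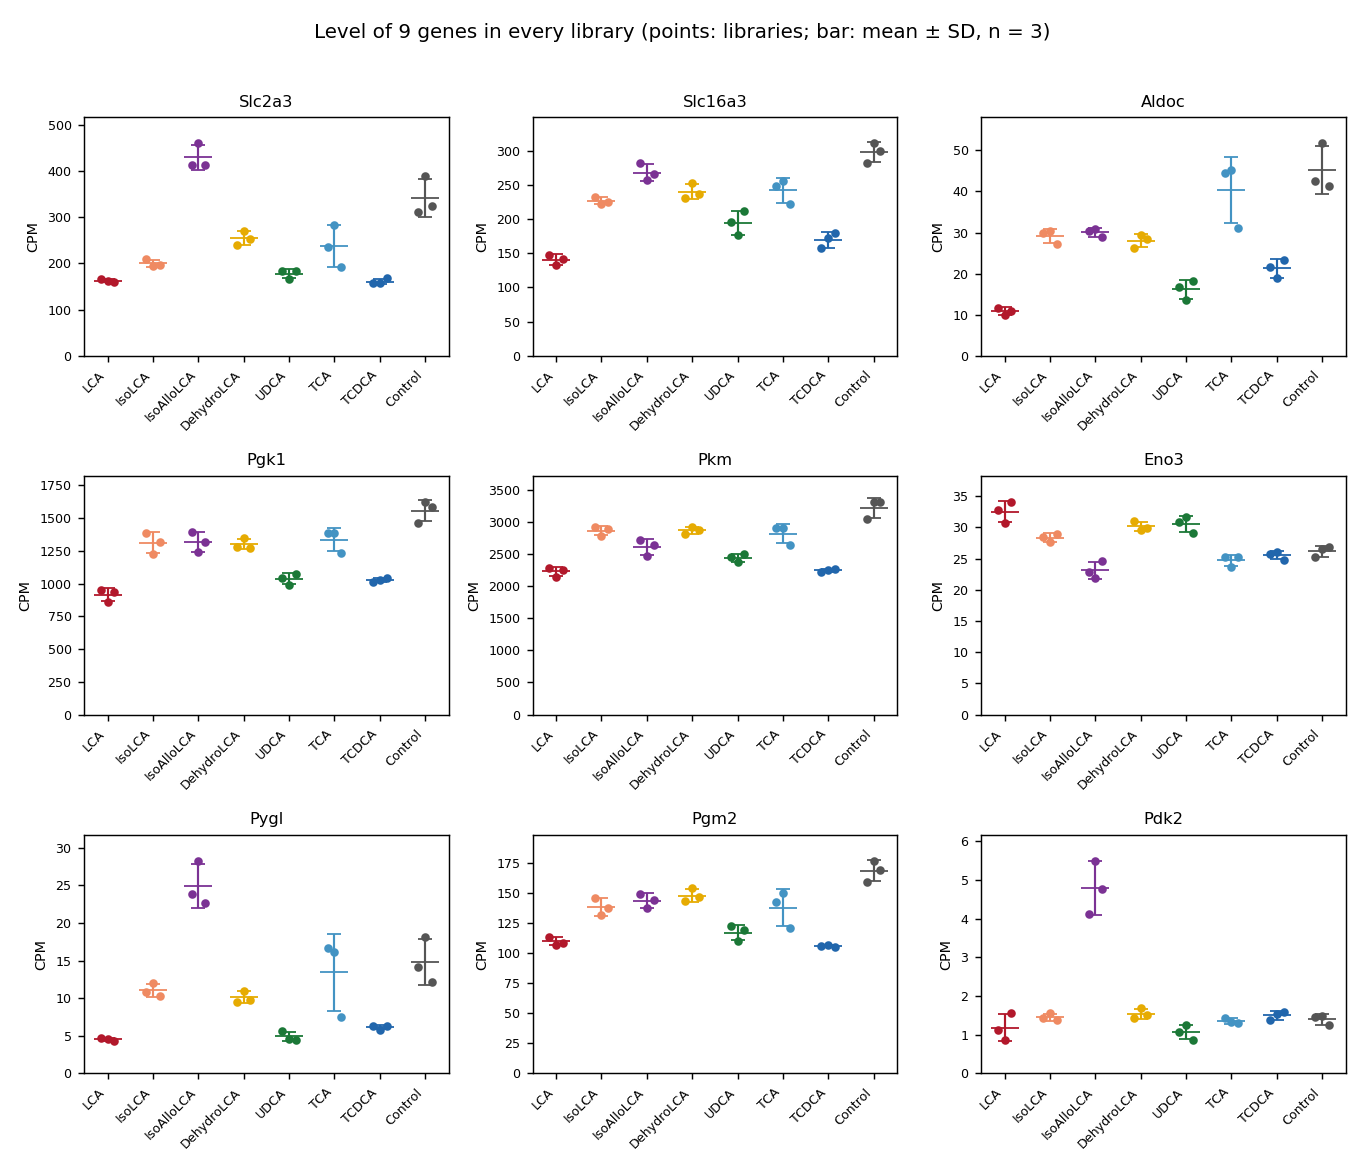
Level (y axis, CPM) of 9 of the 38 genes in each library (points) with the mean and SD of its group (bars, n = 3). LCA, UDCA and TCDCA are lowest for Slc16a3, Aldoc and Pgk1, IsoAlloLCA stands above Control for Slc2a3, Pygl and Pdk2, and Eno3 is highest with LCA at 32.5 CPM, against 26.2 CPM in Control.

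Direct comparisons were made in 5 pairs of acids of equal dose that differ by a known change in structure. IsoLCA is LCA with its ring hydroxyl turned to the opposite face. It left most of the pathway higher than LCA did: 26 of 38 genes were higher and 1 lower, where 15.8% of all tested genes were higher and 14.6% lower. Aldoc stood 2.68-fold higher with IsoLCA than with LCA (log2 1.42 ± 0.12, edgeR adjusted p = 1.3e-08), Slc16a3 differed by 0.69 ± 0.06 (edgeR adjusted p = 2.15e-08), Pgk1 by 0.52 ± 0.05 and Pgam1 by 0.50 ± 0.05. Pygl differed by 1.27 ± 0.20. Eno3 was the member lower with IsoLCA (-0.20 ± 0.05, edgeR adjusted p = 0.00341). Hk2 differed by -0.12 with a 95% interval of -0.26 to 0.01, Pfkp by 0.06 (-0.03 to 0.16) and Slc16a1 by -0.06 (-0.18 to 0.06), and none of those passed.

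DehydroLCA carries a ketone in place of that hydroxyl. Against LCA, 25 of 38 genes were higher with DehydroLCA and 0 lower, where 10.3% of all genes were higher and 7.49% lower. Slc16a3 differed by 0.77 ± 0.06 (edgeR adjusted p = 1.42e-08), Aldoc by 1.36 ± 0.12 (edgeR adjusted p = 9.67e-08), Pgk1 by 0.50 ± 0.05, Pgam1 by 0.46 ± 0.05 and Slc2a3 by 0.65 ± 0.09. Hk2 again did not pass (0.09, 95% interval -0.04 to 0.22), nor, after adjustment, did Eno3 (-0.11, -0.21 to -0.01).

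UDCA is LCA with a further hydroxyl. Against LCA, 17 of 38 genes were higher with UDCA and 0 lower, where 14.8% of all genes were higher and 12% lower. That count was 8 without LCA replicate 2 and 11 without UDCA replicate 3. Slc16a3 differed by 0.47 ± 0.06 (edgeR adjusted p = 3.91e-06), Pgam1 by 0.33 ± 0.05, Pfkl by 0.27 ± 0.05 and Pygb by 0.22 ± 0.04. Glucose transport and Pygl did not pass between them: Slc2a1 differed by 0.11 (95% interval -0.01 to 0.24), Slc2a3 by 0.13 (-0.05 to 0.32) and Pygl by 0.11 (-0.36 to 0.58).

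TCA is TCDCA with a further hydroxyl, and both were given at 100 µM. With TCA, 20 of 38 genes were higher than with TCDCA and 0 lower, where 2.65% of all genes were higher and 0.958% lower. Aldoc stood 1.89-fold higher with TCA than with TCDCA (log2 0.92 ± 0.11, edgeR adjusted p = 4.14e-05), Slc16a3 differed by 0.51 ± 0.06 (edgeR adjusted p = 4.14e-05), Pkm by 0.32 ± 0.04 and Pfkl by 0.34 ± 0.05. Pygl differed by 1.13 ± 0.19. Hk2 differed by 0.00 with an interval of -0.14 to 0.13.

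IsoAlloLCA is IsoLCA with the junction of its outer rings turned, which flattens the ring system. Between these acids 11 of 38 genes were higher with IsoAlloLCA and 12 lower, where 31.7% of all genes were higher and 28.1% lower, so both shares were near the background. Slc2a3 differed by 1.1 ± 0.09 (edgeR adjusted p = 1.34e-10), Pdk2 by 1.72 ± 0.15 (edgeR adjusted p = 3.58e-10), Ldhb by 0.63 ± 0.08, Pygl by 1.18 ± 0.17 and Slc2a1 by 0.42 ± 0.06, all higher with IsoAlloLCA. Slc16a1 (-0.52 ± 0.06, edgeR adjusted p = 5.62e-08) and Pfkp (-0.30 ± 0.05) were lower with it. Of the enzymes, Pgk1 (0.00, 95% interval -0.11 to 0.11), Pfkl (-0.01, -0.11 to 0.08) and Gapdh (-0.04, -0.13 to 0.05) did not pass. Among the 9 preparatory enzymes 2 were lower with IsoAlloLCA and 0 higher. The 9 pay-off enzymes and lactate dehydrogenases had 4 lower and 2 higher. Pkm and Eno1 were among those lower. Both of these calls were lost without IsoAlloLCA replicate 2 (edgeR adjusted p = 0.059 and 0.235).

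**Figure D4:**
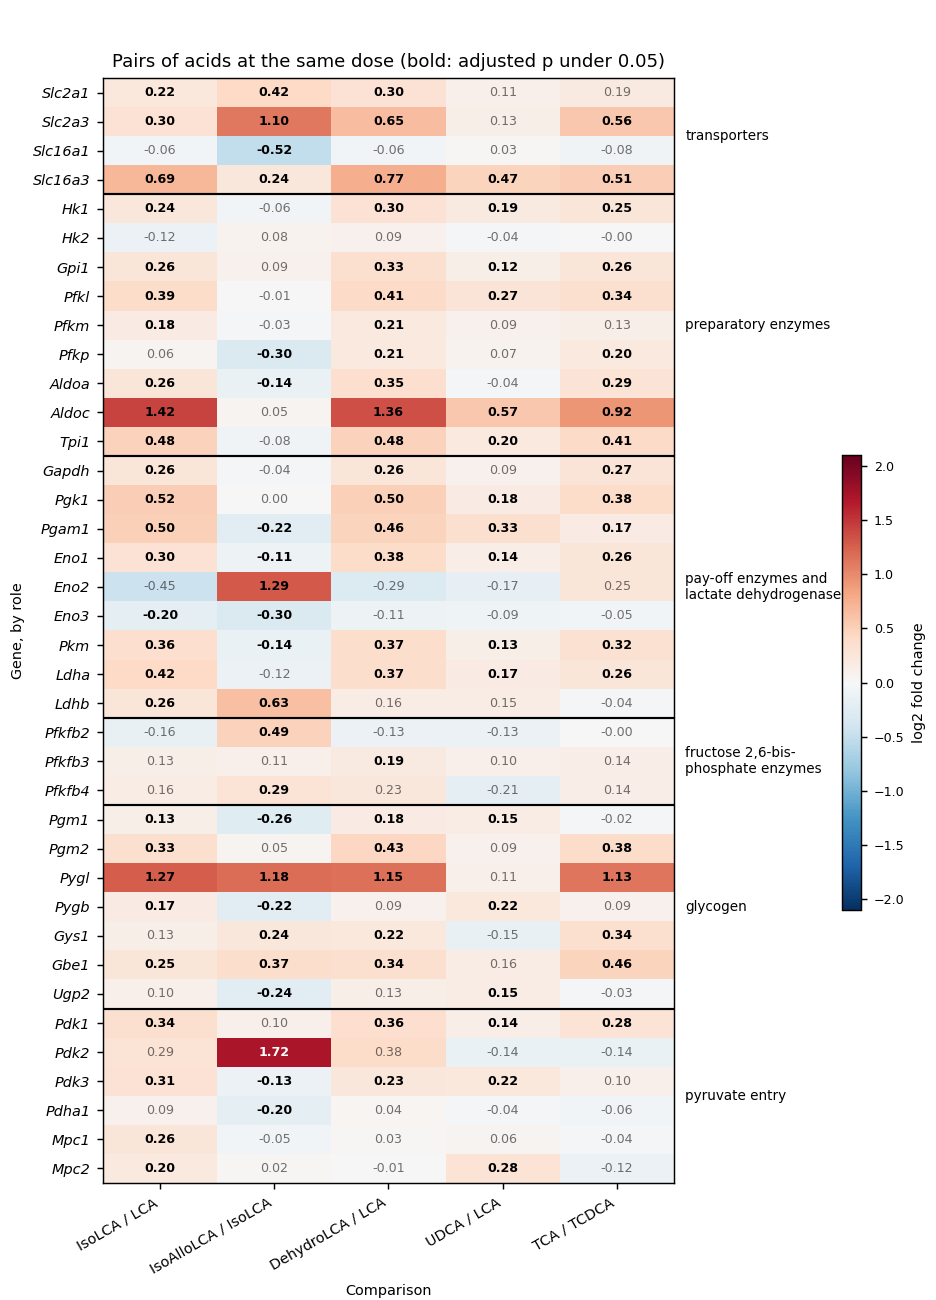
Log2 fold change of each of the 38 genes (rows, grouped by role) between acids at the same dose (columns, left-hand acid over right-hand acid); bold values passed the test at an adjusted p under 0.05. Red fills the IsoLCA, DehydroLCA and TCA columns, with Aldoc at 1.42, 1.36 and 0.92, and the IsoAlloLCA column mixes red for Slc2a3 (1.1) and Pdk2 (1.72) with blue for Slc16a1 (-0.52).

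Several steps are served by related genes, and the mix of them differed between groups. Shares were taken per length within each library, so that genes of different length can be set side by side. They are given as a description, with no test. Of the lactate carriers Slc16a1 and Slc16a3, Slc16a1 made up 44.8% ± 1.52 with LCA (SD, n = 3 in each group), 38.9% ± 0.801 with TCDCA and 37.5% ± 1.87 with UDCA. It made up 32.5% ± 1.71 with IsoLCA, 31.4% ± 0.732 with DehydroLCA, 29.7% ± 2.09 with TCA and 22.1% ± 0.91 with IsoAlloLCA, against 26.4% ± 0.79 in Control. The IsoAlloLCA libraries were below every Control library and all libraries of the other acids were above every Control library. Without division by length Slc16a1 made up 59.2% with LCA, 53.3% with TCDCA and 51.7% with UDCA, against 39.1% in Control. Which carrier was the larger part with these acids thus depends on that division.

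Of the glucose transporters Slc2a1 and Slc2a3, Slc2a3 made up 54.5% ± 1.83 with IsoAlloLCA, 41.5% ± 0.321 with LCA and 40.8% ± 1.01 with TCDCA, against 50.6% ± 1.94 in Control. From counts not divided by length it made up 64.9% with IsoAlloLCA, 52.3% with LCA and 51.5% with TCDCA, against 61.2% in Control. Among the enolases Eno3 made up 1.83% ± 0.0418 with LCA and 1.57% ± 0.152 with UDCA, against 1.01% ± 0.00119 in Control, while Eno1 averaged at least 98.1% in every group. Aldoc made up 0.409% ± 0.027 of the aldolases Aldoa and Aldoc with LCA and 1.28% ± 0.129 in Control, and, from counts not divided by length, 0.691% ± 0.0454 with LCA and 2.14% ± 0.215 in Control.

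Pygl made up 23% ± 2.48 of the phosphorylases Pygl and Pygb with IsoAlloLCA, 5.97% ± 0.202 with TCDCA, 5.0% ± 0.143 with LCA and 4.65% ± 0.502 with UDCA, against 12.8% ± 2.06 in Control. The muscle-type phosphorylase, Pygm, is not part of these shares. Ldhb reached 0.724% ± 0.0267 of lactate dehydrogenase with IsoAlloLCA, against 0.34% ± 0.0142 in Control, so Ldha made up 99.3% with IsoAlloLCA and 99.7% in Control. Within phosphofructokinase, Pfkp was at 53.1% ± 1.23 with IsoAlloLCA and 62.9% ± 0.451 with LCA, against 60.0% ± 0.858 in Control. Pdk2 made up 3.08% ± 0.597 of the measured pyruvate dehydrogenase kinases with IsoAlloLCA and 0.834% ± 0.0843 in Control, with Pdk1 and Pdk3 sharing the rest. Without division by length its share was 1.90% ± 0.361 with IsoAlloLCA and 0.521% ± 0.0555 in Control.

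**Figure D5:**
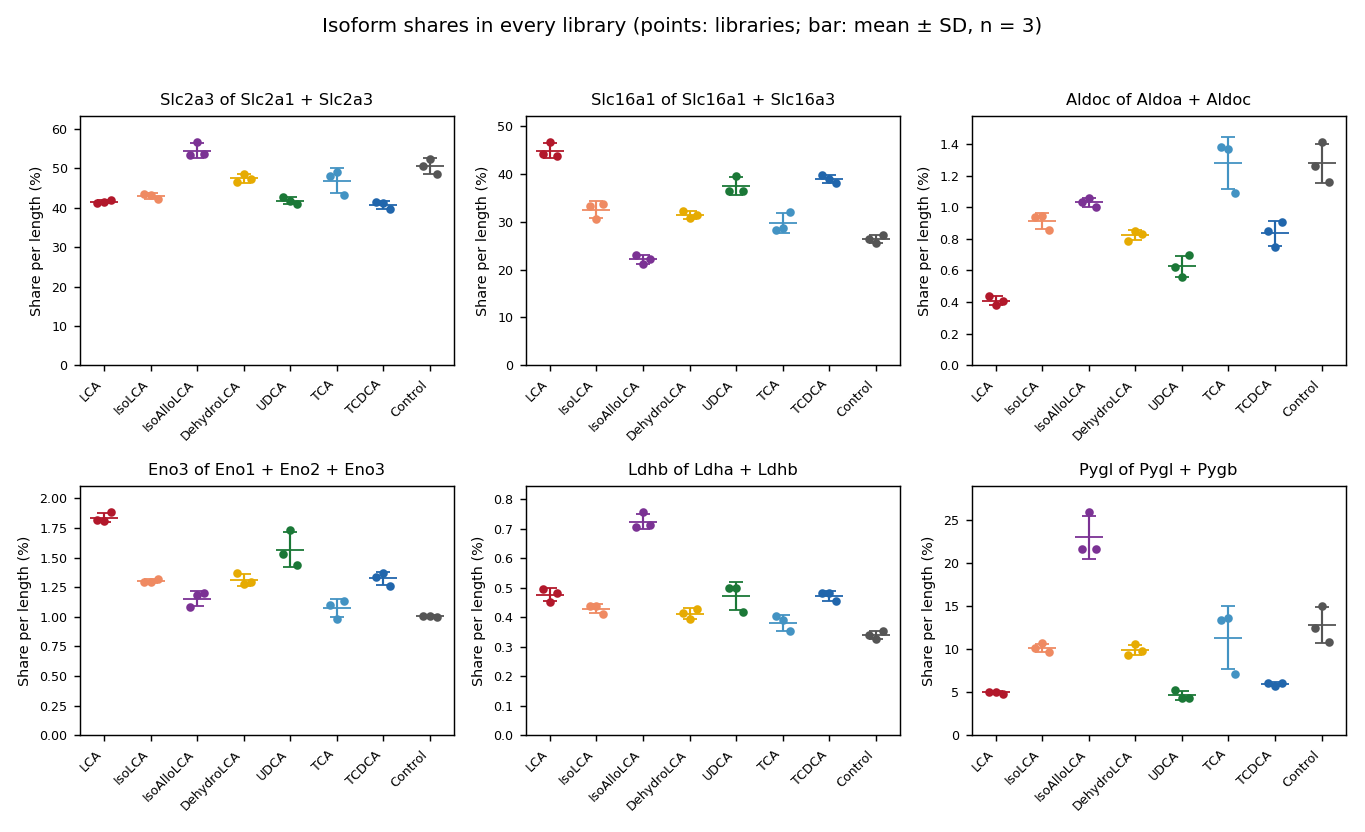
Share per length (y axis, %) of 1 gene among its related genes, named over each panel, in each library (points) with the mean and SD of its group (bars, n = 3). Slc16a1 runs from 22.1% with IsoAlloLCA to 44.8% with LCA, against 26.4% in Control, and Pygl, Ldhb and Slc2a3 take their highest shares with IsoAlloLCA.

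Of 78 further genes of the same routes, 56 could be tested. LCA lowered 21 and raised 8, UDCA lowered 23 and raised 1, TCDCA lowered 15 and raised 2, IsoLCA lowered 9 and raised 1, DehydroLCA lowered 8 and raised 0, TCA lowered 2 and raised 0, and IsoAlloLCA lowered 16 and raised 16. With IsoAlloLCA both shares are close to those of all tested genes, 27.8% lowered and 30.6% raised, and with LCA the share raised is below the 17.7% of all genes. The shares lowered were above those of all genes with LCA (18.8%), UDCA (10.7%), TCDCA (8.04%), IsoLCA (6.12%), DehydroLCA (3.41%) and TCA (0.353%). The median log2 fold change over the 56 lay between -0.11 and -0.03 in the 7 comparisons. Egln3, a prolyl hydroxylase that marks hypoxia-inducible factors for decay and is itself their target, fell with each of the 7 acids: -1.01 ± 0.09 with LCA, -0.88 ± 0.09 with UDCA, -0.82 ± 0.09 with TCDCA, -0.50 ± 0.09 with IsoLCA, -0.45 ± 0.09 with DehydroLCA, -0.44 ± 0.09 with TCA and -0.40 ± 0.09 with IsoAlloLCA. Bsg, the chaperone that carries the monocarboxylate carriers to the membrane, was at -0.63 ± 0.04 with LCA, -0.46 ± 0.04 with TCDCA and -0.18 ± 0.04 with TCA, all called lower, and rose by 0.13 ± 0.04 with IsoAlloLCA.

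Of the 9 oxygen-sensing genes and hypoxia factors, LCA lowered 5, UDCA 6, TCDCA 4, IsoLCA 4, DehydroLCA 3 and TCA 1, and none of them raised any, while IsoAlloLCA lowered 1 and raised 3, a share close to the 30.6% of all tested genes that it raised. Of all tested genes, LCA lowered 18.8%, UDCA 10.7%, TCDCA 8.04%, IsoLCA 6.12%, DehydroLCA 3.41%, TCA 0.353% and IsoAlloLCA 27.8%. Hif1a, the oxygen-regulated subunit of the main factor, was at -0.40 ± 0.04 with IsoLCA, -0.28 ± 0.04 with UDCA, -0.25 ± 0.04 with TCDCA and -0.18 ± 0.04 with DehydroLCA, all called lower, while with LCA the difference of -0.06 did not pass (95% interval -0.14 to 0.03). Epas1, a second such subunit, was at -0.71 ± 0.18 with TCDCA, -0.70 ± 0.17 with LCA, -0.55 ± 0.17 with IsoLCA and -0.51 ± 0.18 with UDCA, and rose by 0.68 ± 0.16 with IsoAlloLCA. Egln1, another of the hydroxylases, was lower with LCA (-0.62 ± 0.05), TCDCA, UDCA, IsoLCA and DehydroLCA. Hif3a was lower with UDCA (-0.74 ± 0.20) and LCA, and Vhl, which recognises the hydroxylated factors, was lower with UDCA (-0.24 ± 0.06) and LCA. IsoAlloLCA raised Vhl (0.28 ± 0.06) and Hif1an (0.18 ± 0.04), an asparaginyl hydroxylase of the factors.

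Of the 5 other carriers tested, IsoAlloLCA raised 4 and lowered 1, where it raised 30.6% of all tested genes and lowered 27.8%. It raised Bsg and the glucose transporter family members Slc2a6 (2.04 ± 0.13), Slc2a9 (0.77 ± 0.08) and Slc2a8 (0.64 ± 0.10), and lowered Slc16a6 (-0.50 ± 0.06), of the monocarboxylate carrier family. UDCA and TCDCA lowered Slc2a6 and Slc2a8, and LCA lowered Slc2a9 (-0.29 ± 0.08). Among the 12 other glycogen genes tested, IsoAlloLCA raised 5, where it raised 30.6% of all tested genes: the phosphorylase kinase subunits Phka2 (0.39 ± 0.08), Phkg2, Phkb and Phka1, and the lysosomal glucosidase Gaa. Pygm, the muscle-type phosphorylase, was lower with LCA (-0.95 ± 0.05), IsoAlloLCA (-0.82 ± 0.05), IsoLCA (-0.46 ± 0.05), DehydroLCA and UDCA. Phkg2 was lower with UDCA (-0.17 ± 0.05), and the glycogen phosphatase Epm2a, which was scarce, with LCA. Ppp1r3e, which targets a phosphatase to glycogen, rose with LCA (0.49 ± 0.08) and UDCA (0.36 ± 0.09), while its relative Ppp1r3b was lower with UDCA (-0.60 ± 0.11), TCDCA, DehydroLCA, IsoLCA and LCA.

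Of 11 other glycolytic enzymes and regulators tested, Tigar, a phosphatase that degrades the PFKFB product, rose with LCA (0.26 ± 0.07), IsoLCA (0.24 ± 0.07) and TCDCA (0.22 ± 0.07) and fell with IsoAlloLCA (-0.27 ± 0.07). Adpgk, which phosphorylates glucose with ADP, rose with LCA (0.20 ± 0.06). Pgp, a phosphoglycolate phosphatase, was lower with IsoAlloLCA (-0.46 ± 0.07) and LCA, Galm, the aldose mutarotase, with UDCA (-0.54 ± 0.12) and TCDCA, and Bpgm with UDCA (-0.29 ± 0.08) and IsoAlloLCA. Gapdhs (0.78 ± 0.27) and Pgam2 (0.60 ± 0.15) rose with IsoAlloLCA.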

How the data were processed

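RNA of 24 libraries of mouse CD8+ T cells was sequenced. The deposited table holds estimated counts per gene, 1 row for each of 24537 genes with its transcript, position, length and copies, made by the authors. STAR, HOMER, DESeq2 and the builds GRCm38 and mm10 are named in the submitters' processing notes; the sources used here do not state how reads that map to several places were counted. Of the deposited counts, 29.43% ended in 0.5, so all were rounded to whole numbers, upward at 0.5. Tests had been planned for whole counts.

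Counts were fitted with edgeR 4.0.16 (quasi-likelihood, R 4.3.3) on all 24 libraries, with TMM scaling (0.971 to 1.05), filterByExpr and 1 coefficient per group. The common biological coefficient of variation was 4.41%. P-values were Benjamini-Hochberg adjusted over the 13044 genes tested, with a threshold of 0.05 and 95% intervals. CPM are of TMM-scaled libraries, and levels between genes are per kilobase of the listed transcript. At a depth of 25998051 to 41024340.5 counts, counting error is small for all but the scarce genes. In simulated counts for LCA against Control over 12842 genes, 79.4% of genes changed 1.5-fold and 38.9% of those changed 1.2-fold were called, and 0.9% of calls were false. Only a small set of genes was changed there. The other genes had the Control mean in every group, and the spread was that fitted to the data. In the data 4765 genes were called for this comparison, so the simulated rates need not hold for it.

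The members and lists were chosen with earlier results of these data known. Values in every library are given for the 2 members of each role with the smallest p of the difference among the groups, and for any member called against most others in at least 3 comparisons with Control. In each comparison, up to 4 called members with the smallest p and up to 3 of the opposite direction are named; further members are described to account for all 38. Some genes of the other lists are counted but not reported here by name. The alternatives were RLE size factors, DESeq2 1.42.0, no filter, rounding down, a replicate block, fits of only the 2 groups, each library left out, and shares without length.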

Additional observations from a re-analysis of the deposited data

How the results depend on the processing

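Of 263 calls of the 38 genes in the 12 comparisons, 261 were kept with RLE size factors, 261 with DESeq2, 258 with no filter on low counts, 263 with rounding down and 248 in fits of only the 2 groups compared. Leaving out 1 library at a time kept 1410 of 1578, and no call of these settings reversed. The count for TCA against Control, 5, was 12 with DESeq2, 14 with no filter and 0 in a fit of only the 2 groups, and ran from 0 to 14 with 1 library left out. That for DehydroLCA against Control, 15, ran from 4 to 20, and that for UDCA against LCA, 17, from 8 to 17. The cause was not tested. The other comparisons stayed within 1.5 times their count.

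The labels do not say that replicate numbers pair libraries, and in none of the 12 comparisons were the correlations of all 3 same-numbered pairs above 0.1. They ran from -0.328 to 0.396, and were positive in all 3 pairs for IsoLCA against LCA (0.0745 to 0.265) and IsoAlloLCA against IsoLCA (0.0704 to 0.396). These correlations are of deviations from the group means. For 15 of the 24 libraries, the mean correlation with libraries of other groups was highest for their own number among the 3 numbers. That is a hint of pairing from the data and not the design. With the replicate number as a block, 262 of the 263 calls were kept, and Aldoa with IsoLCA was lost (edgeR adjusted p = 0.0512). With the block the counts were 30 for LCA, 19 for IsoLCA, 31 for IsoAlloLCA, 18 for DehydroLCA, 27 for UDCA, 5 for TCA and 25 for TCDCA, each against Control.

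Of the isoform shares recomputed without length or without a library, 614 moved by less than 1 SD and 218 by more. With so few libraries in a group, leaving 1 out can hardly move its mean by 1 SD. The count of 614 therefore does not show that the shares are stable. Both settings are pooled in these counts, so they do not tell how many shares moved without length. Depth limits the scarce members, such as Eno2, whose log2 fold change with IsoAlloLCA had an SE of 0.25.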

Other observations

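The pentose phosphate branch, which draws on the same hexose phosphates to make NADPH and ribose, was lowered in most of its genes by IsoAlloLCA and LCA: 6 of its 8 tested genes fell and 1 rose with IsoAlloLCA, and 5 fell and 1 rose with LCA. Of all tested genes, 27.8% fell and 30.6% rose with IsoAlloLCA, and 18.8% fell and 17.7% rose with LCA. UDCA and TCDCA lowered 3 each, with 1 raised by TCDCA, while IsoLCA and DehydroLCA lowered 1 each and TCA 0. Over all tested genes UDCA lowered 10.7%, TCDCA 8.04%, IsoLCA 6.12% and DehydroLCA 3.41%, and TCDCA raised 5.08%. Rpia, which isomerises ribose phosphates, was at -0.69 ± 0.05 with IsoAlloLCA on the log2 scale. Pgd, the decarboxylating dehydrogenase, was at -0.39 ± 0.04 with IsoAlloLCA and -0.32 ± 0.04 with LCA, and transketolase, Tkt, at -0.39 ± 0.04 with IsoAlloLCA and -0.19 ± 0.04 with LCA. G6pdx, the entry enzyme, was lower with LCA (-0.25 ± 0.05), IsoAlloLCA, UDCA, TCDCA and DehydroLCA. Taldo1, transaldolase, was lower with IsoAlloLCA (-0.24 ± 0.05) and LCA. Pgls, the lactonase, was the gene that rose with IsoAlloLCA (0.18 ± 0.04) and TCDCA (0.13 ± 0.04), and H6pd, the form of the endoplasmic reticulum, rose with LCA (0.22 ± 0.05) and fell with IsoAlloLCA (-0.22 ± 0.05).

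Around pyruvate, Pcx, which feeds oxaloacetate, was called lower with LCA (-0.63 ± 0.08), UDCA (-0.60 ± 0.08), IsoAlloLCA (-0.57 ± 0.08) and TCDCA (-0.42 ± 0.08). Pck2, the mitochondrial carboxykinase and a known target of the amino acid stress factor Atf4, rose with LCA (0.67 ± 0.07) and fell with UDCA (-0.32 ± 0.08) and IsoAlloLCA (-0.18 ± 0.08). The phosphatase Pdp2, which opposes the pyruvate dehydrogenase kinases, was lower with IsoAlloLCA (-0.51 ± 0.06), UDCA (-0.30 ± 0.06), IsoLCA (-0.29 ± 0.06), LCA (-0.27 ± 0.06) and DehydroLCA (-0.27 ± 0.06). Its relative Pdp1 was lower with UDCA (-0.33 ± 0.06) and LCA (-0.27 ± 0.06). LCA raised the pyruvate dehydrogenase subunits Pdhx (0.23 ± 0.04) and Dld (0.11 ± 0.04) and the lipoate synthase Lias (0.15 ± 0.06), whereas IsoAlloLCA lowered the subunit Dlat (-0.13 ± 0.05) and raised Pdpr (0.32 ± 0.05), a regulator of the phosphatase. All of these are edgeR calls over the tested genes.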
